A study of Homo sapiens with 4 samples.

Results

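Complex I of the respiratory chain was followed through the genes of its nuclear-encoded subunits in NGP, an established human neuroblastoma line. The members were the rows of the deposited count table whose Ensembl identifier carries a symbol made of NDUF, a letter A, B, C, S or V and digits, together with NDUFAB1. Assembly factors and pseudogenes were not counted as members. The rule found 38 genes among 25693 human genes, and all 38 passed the filter on low counts.

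The cells had been synchronised by withdrawal of serum and then kept for 24 h with Nutlin-3, an inhibitor of the binding of MDM2 to p53, or with its solvent ethanol. RNA was captured on the ddSeq droplet device and read at the 3' end of transcripts with the SureCell WTA 3' kit. The labels describe 4 libraries, 2 per treatment. Each treatment has 1 library with ERCC spikes, synthetic control RNAs, diluted 1000-fold and 1 with spikes diluted 10000-fold. All groups are the same line under the same synchronisation, and the labels name no separate cultures.

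Complex I takes electrons from NADH, passes them along a chain of iron-sulfur clusters to ubiquinone and pumps protons across the inner mitochondrial membrane. Its L shape has a matrix arm, with an N module that oxidises NADH and a Q module that reduces ubiquinone, and a membrane arm that holds the proton pumps. The pumps are encoded by mitochondrial DNA, whereas the catalytic subunits of the matrix arm and all accessory subunits are encoded in the nucleus and imported. Activated p53 is known to influence the balance of glycolysis and respiration.

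The table holds 250 columns named as treated, taken as Nutlin-3, and 250 named as untreated, taken as ethanol. No column name gives the library, so each treatment is 1 pool, no difference below has a replicate, and no test between treatments was possible. The Nutlin-3 pool held 1301232 human counts and the ethanol pool 1342134. Columns fell into 113 large ones per treatment, with over 4000 counts, and 137 small ones. Large columns held 1160372 of the Nutlin-3 and 1190571 of the ethanol counts, and small ones 140860 and 151563. Of the 250 column names of each treatment, 219 occurred in both, so a column is not taken as a cell. All 113 large columns of each treatment had such a name, and the 31 columns without one were small. The treatment showed in CDKN1A, the gene of the inhibitor p21, at 188 counts against 70 in ethanol, and in MDM2, at 504 against 315. The 10 markers of adrenergic neuroblastoma looked for were all present, from 104 counts for DBH to 1140 for MYCN in ethanol. Of the mesenchymal markers, SNAI2 had 54 counts with Nutlin-3 and 73 with ethanol, CD44 58 and 31, COL1A1 47 and 29, FOSL1 14 and 1, and PRRX1 2 and 2. YAP1 had no row under its symbol. Of the epithelial ones, EPCAM had 21 and 16, KRT19 14 and 3, and CDH1 0 and 1. Of the blood markers, CD14 had 7 and 7, and PTPRC, CD3E and HBB had no row. The part of these markers in the results was not tested.

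The starts of the member genes were searched for 5 short motifs. RefSeq windows of 250 bases before to 50 bases after a transcript start (GRCh38.p14) were found for 32 of the 38 members. The letters AAGATGGCG, the core of a YY1 site, were present on either strand in the windows of 6 members, or 18.8%, against 2.14% of 27305 genes and 4.86% of the 10190 genes of this set that passed the filter on low counts here. Every match read in the direction of the gene and began between 11 and 26 bases into the transcript. In all 6 genes its ATG was a start codon in GENCODE release 29, so the match joins the end of the leader to the first codons. The 30 bases around each match are shown because every match lies at the start codon, with the matched letters in capitals.
NDUFA6 (chr22:42090728-42090757, minus strand): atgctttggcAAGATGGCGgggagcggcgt
NDUFA7 (chr19:8321342-8321371, minus strand): tcgcggacggAAGATGGCGtccgccacccg
NDUFA9 (chr12:4649114-4649143, plus strand): attgtgggaaAAGATGGCGgctgccgcaca
NDUFB8 (chr10:100529835-100529864, minus strand): gaagaaggtgAAGATGGCGgtggccagggc
NDUFS4 (chr5:53560650-53560679, plus strand): tgcctgcagcAAGATGGCGgcggtgtcaat
NDUFS7 (chr19:1383914-1383943, plus strand): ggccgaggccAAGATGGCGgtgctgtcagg

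NRF1, a factor known to act on many genes of respiration, has a core of GCGCA and GCGC with 1 base of any kind between them. It was found on either strand in 6 members, again 18.8%, against 6.98% of all genes and 14% of those that passed the filter. NDUFB4 held matches at 3 places, NDUFA3 at 2, and NDUFA8 at 2 that overlap. The stretches of NDUFB4 and NDUFA3 are shown, with the matches in capitals, to give the spacing of their separate matches. The share of other genes with more than 1 match was not computed.
NDUFB4 (chr3:120596166-120596337, plus strand): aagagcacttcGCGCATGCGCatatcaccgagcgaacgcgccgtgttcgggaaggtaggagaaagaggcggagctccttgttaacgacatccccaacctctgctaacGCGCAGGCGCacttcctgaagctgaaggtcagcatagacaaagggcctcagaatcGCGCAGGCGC
NDUFA3 (chr19:54102675-54102794, plus strand): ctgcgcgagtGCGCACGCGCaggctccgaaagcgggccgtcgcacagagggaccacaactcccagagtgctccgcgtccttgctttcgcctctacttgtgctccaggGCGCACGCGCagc

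The other members with the NRF1 core were NDUFA8, NDUFA9, NDUFA11 and NDUFA12. The ETS core CCGGAAG was in 15.6% of members against 12.2% of all genes and 22.8% of those past the filter. The SP1 core GGGCGG was in 65.6% against 48.3% and 77.2%, and the letters TATAAA in 9.38% against 14% and 8.50%. Matches of different motifs overlapped at 1 place, SP1 and ETS in NDUFS3. These matches describe letters and not bound sites. The 6 genes with the YY1 core had log2 ratios of Nutlin-3 over ethanol from -0.12 for NDUFA6 to 0.17 for NDUFB8.

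Complex I transcripts were abundant in both pools, and their order was nearly the same with either treatment. Because the kit reads 1 end of each transcript, counts were not divided by length. Over the 38 members the count correlated with the median length of the gene's coding transcripts by a Spearman rho of 0.07, given as a description across genes that share 2 pools. Summed over all columns, members ran from 98 to 295 counts in Nutlin-3 and from 99 to 313 in ethanol. NDUFB3 and NDUFC2, subunits of the membrane arm, each exceeded 90.8% of the genes that passed the filter. The lowest member, NDUFV2, exceeded 57.4% and the highest, NDUFS5, 98.98%. These ranks rest mostly on the large columns. In the small columns alone NDUFV2, NDUFA7 and NDUFA9 did not pass the filter. The rho between the pools was 0.90 across members.

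NDUFS5 (ENSG00000168653, chromosome 1, 39026318 to 39034636 in GRCh38), a small cysteine-rich subunit of the membrane arm, was the most abundant. It had 202 counts in the large and 93 in the small columns of Nutlin-3, and 225 and 88 in those of ethanol. NDUFA4 (ENSG00000189043, chromosome 7, 10931951 to 10940256), which carries a complex I name but is now assigned to complex IV, followed with 170 and 62 counts in the Nutlin-3 pool and 181 and 59 in the other. These were followed by 3 subunits of the membrane arm, NDUFB4, NDUFB9 and NDUFB7, with 222, 207 and 192 counts over all Nutlin-3 columns and 212, 226 and 210 in ethanol. For each of the 5 the pools lay closer together than their 95% Poisson intervals, such as 262 to 331 for NDUFS5 in Nutlin-3 and 279 to 350 in ethanol.

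Among the catalytic subunits of the matrix arm, all those of the N module lay below the members' median of 318 counts over both pools. NDUFV1, which binds NADH and flavin, had 143 counts in the Nutlin-3 pool and 148 in the ethanol pool. NDUFS1, the large iron-sulfur subunit of the N module, had 138 and 163. NDUFV2 (ENSG00000178127, chromosome 18, 9102630 to 9134345), the iron-sulfur partner of NDUFV1, was the lowest member, with 98 and 99. In the Q module, NDUFS7, which carries the last iron-sulfur cluster before ubiquinone, had 188 and 192 counts and came directly after NDUFB7 in the list. NDUFS8, a ferredoxin-like subunit, had 161 in each pool, and NDUFS3 146 and 155. The N module core thus spanned 98 to 163 counts and the Q module core 146 to 192. The other low members were accessory ones. NDUFA7 had 114 and 106 counts, NDUFA9 117 and 125, NDUFA12 125 and 126, and NDUFB1 130 and 135.

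**Figure D1:**
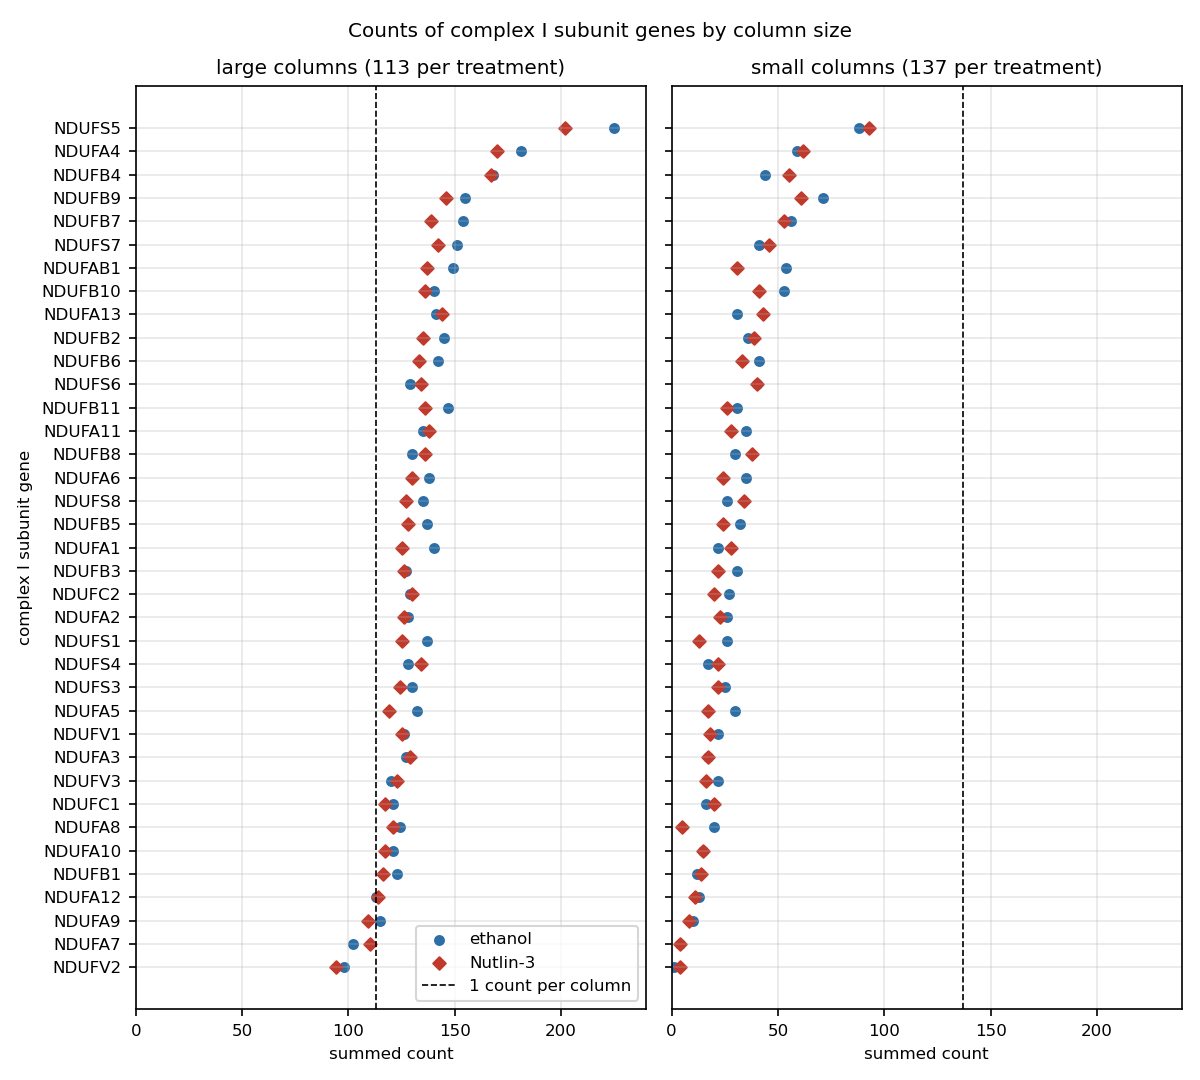
Summed counts of 37 complex I subunit genes in ethanol (circles) and Nutlin-3 (diamonds), in the 113 large columns per treatment on the left and the 137 small columns on the right, with genes ordered by their count over both pools. The dashed line marks 1 count per column. In large columns 35 of these genes lie at or above the line in ethanol and 34 in Nutlin-3, and in small columns all lie below 137, from 1 to 88 in ethanol and from 4 to 93 in Nutlin-3.

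The levels depended on the size of the column far more than on treatment. In the large columns nearly every member was present in nearly every column with exactly 1 count. Of all member values in these columns, 81.3% in Nutlin-3 and 79.9% in ethanol were 1, 14.9% and 15.7% were 2, and 2.10% and 1.49% were 0. At least 90% of large columns held a count for 37 members in Nutlin-3 and 36 in ethanol. By comparison, 29.3% of the 14830 genes that passed the filter reached that share in Nutlin-3 and 33.2% in ethanol. Even NDUFV2 was found in 92 of the 113 large columns of Nutlin-3 and in 96 of ethanol, with 1 count in 90 and 94 of them.

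Counts in large columns also varied less from column to column than their mean. The median ratio of variance to mean over the 38 members was 0.15 in Nutlin-3 and 0.18 in ethanol. Genes with means in the same range had 0.15 (n = 5857) and 0.14 (n = 5827), so this feature was not particular to complex I. The ratio was highest for the abundant members, up to 0.56 for NDUFS5 in Nutlin-3 and 0.53 for NDUFB4 in ethanol. The counting intervals given here assume a ratio of 1, so they are wider than the spread between large columns would give.

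**Figure D2:**
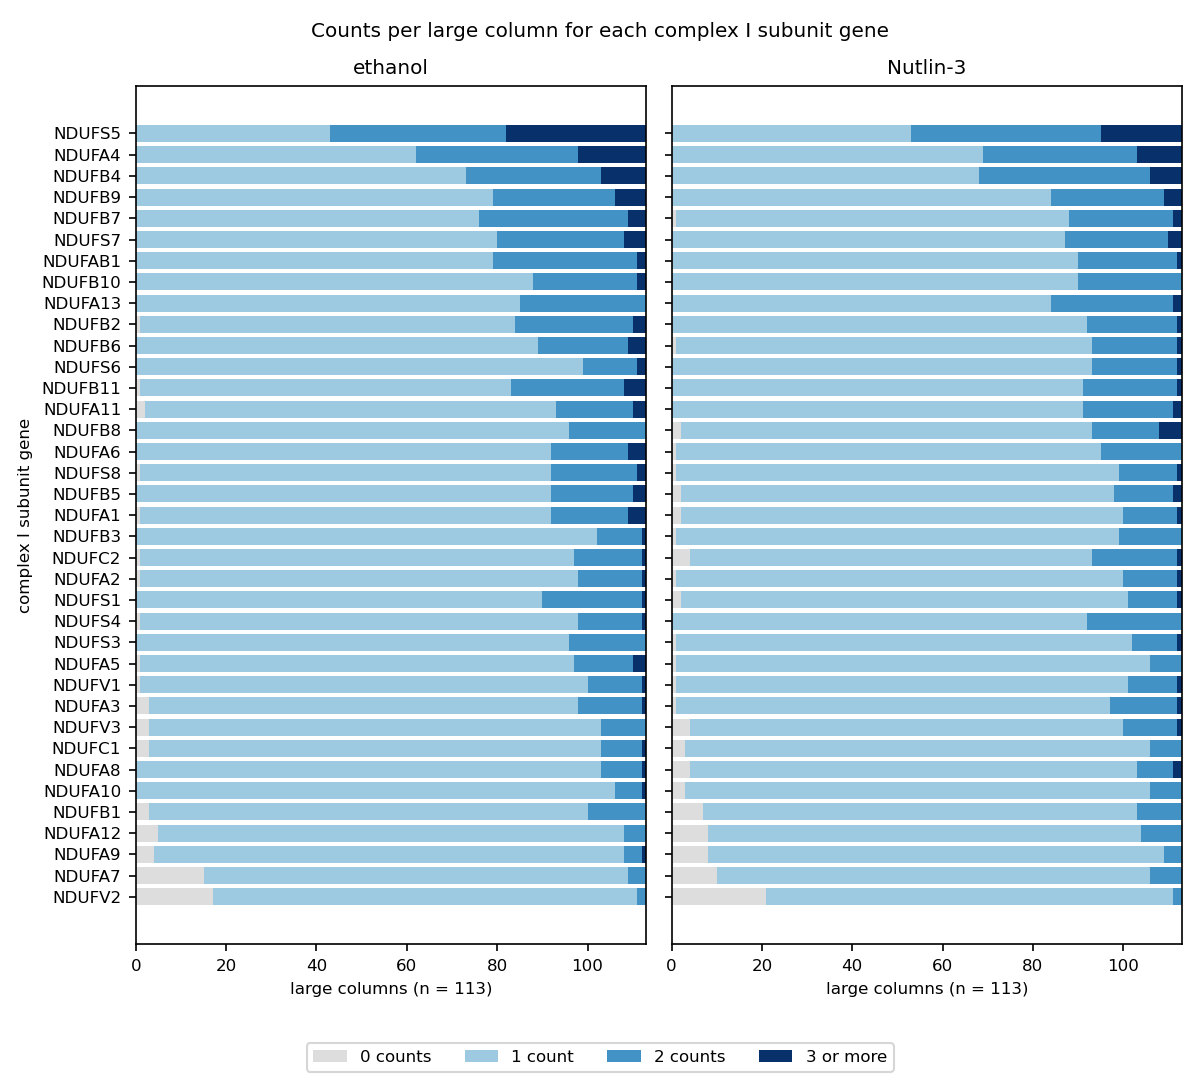
For each of 37 complex I subunit genes, the number of the 113 large columns with 0, 1, 2 or at least 3 counts, in ethanol on the left and Nutlin-3 on the right. The 1-count bar fills most of every row except NDUFS5, which has 1 count in 43 ethanol and 53 Nutlin-3 columns, and the 0-count bar is longest for NDUFV2 and NDUFA7.

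In the small columns the members were spread over a much wider range. The large-column sums ran from 94 to 202 in Nutlin-3, or 2.15-fold, and from 98 to 225 in ethanol, or 2.30-fold. The small-column sums ran from 4 to 93 in Nutlin-3, or 23.3-fold, and from 1 to 88 in ethanol. As counts per 1000000 human counts (CPM) over both treatments, small columns gave 17.1 CPM for NDUFV2, 27.4 for NDUFA7, 61.6 for NDUFA9, 451 for NDUFB9 and 619 for NDUFS5. The same genes had 81.7, 90.2, 95.3, 128 and 182 CPM in the large columns. The order of members in the large and small columns was similar, with a rho of 0.91 in Nutlin-3 and 0.89 in ethanol.

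As a group, complex I took a larger share of the small columns than of the large ones. It held 0.780% of human counts in the small columns of Nutlin-3 (95% exact binomial interval 0.735 to 0.828) and 0.780% in those of ethanol (0.736 to 0.825). In the large columns it held 0.431% (0.419 to 0.443) and 0.435% (0.423 to 0.447). Small and large columns differed by 1.81-fold in Nutlin-3 and 1.79-fold in ethanol, well beyond the counting intervals, whereas the intervals of the treatments overlapped within each size. CPM was higher in the small columns for 32 of 38 members, with a median ratio of 1.58. Of the 6168 genes within the members' range of counts, 44.0% were higher in small columns, with a median ratio of 0.914. These genes were not matched to the members in level within that range, 197 to 608 counts. Among members the ratio was 0.209 for NDUFV2, the lowest in count, and 3.41 for NDUFS5, the highest. The 6 members with the opposite order were NDUFV2, NDUFA7, NDUFA9, NDUFA8, NDUFA12 and NDUFB1, with 197 to 270 counts over both pools. Whether the members differ in this from genes of like level was not tested. What the sizes of columns stand for was not tested.

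**Figure D3:**
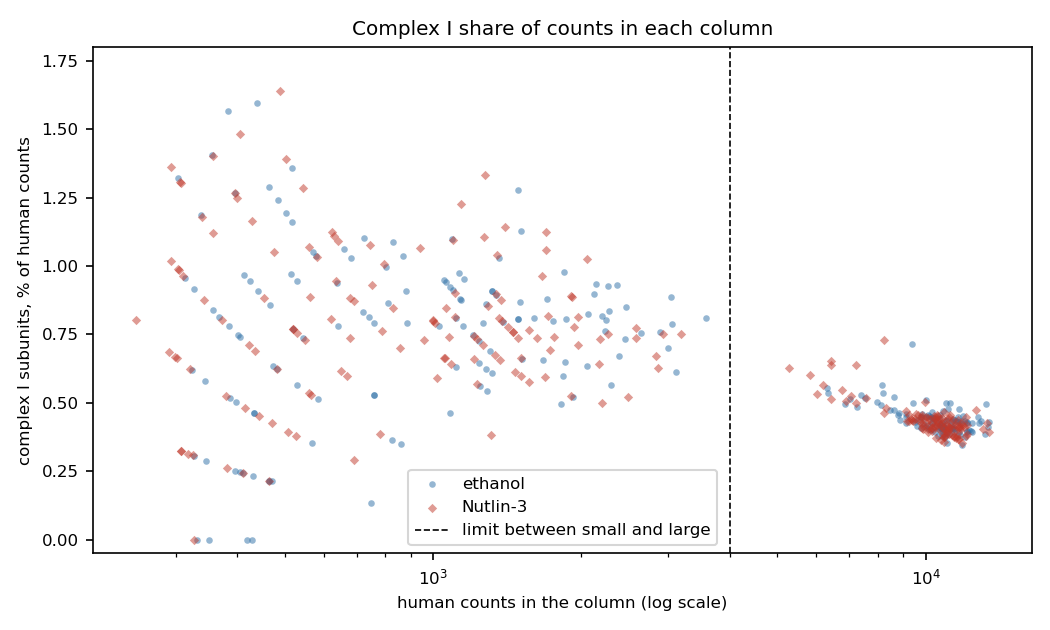
Share of human counts that fell on the 38 complex I subunit genes in each of the 500 columns, against the human counts of the column on a log scale, for ethanol (circles) and Nutlin-3 (diamonds). Large columns gather near 0.43% with both treatments, the shares of small columns spread from 0 to 1.64%, and the treatments overlap throughout.

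The same held for single columns. The median large column carried 44 complex I counts in Nutlin-3 (range 32 to 60) and 45 in ethanol (34 to 67), on a median of 38 different members in each. The median small column carried 7 in both, with 24 at most in Nutlin-3 and 29 in ethanol, and 1 and 4 small columns held none. After thinning to 700 human counts, the 113 large columns had a mean of 3.21 complex I counts in Nutlin-3 and 3.04 in ethanol. The 74 Nutlin-3 and 81 ethanol small columns that reached 700 had 5.38 in each, with 63 and 56 too shallow. A thinned column held at least 1 complex I count in 96.8% of 187 Nutlin-3 columns and 96.4% of 194 ethanol columns. Both shares pool large and small columns and describe columns, not replicates of a treatment. Unthinned, 1 of 250 Nutlin-3 and 4 of 250 ethanol columns were without one, at median depths of 2010 and 2287 human counts. Every nucleated cell uses these genes, so no cells were at hand to show the share that free RNA would give.

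Nutlin-3 and ethanol were compared to see whether the subunit genes differed under the inhibitor. The 38 members summed to 6103 counts with Nutlin-3 and 6361 with ethanol, a log2 ratio of -0.01 (95% counting interval -0.06 to 0.04) after scaling by TMM. Of these counts 5004 and 5179 came from the large columns, where most values were 1 with either treatment, so a small ratio there does not show that transcript levels were alike. How far such counts follow the level of a transcript was not tested. The median of the 38 log2 ratios was -0.01, and that of all 14830 genes that passed the filter was -0.00. Of the members 16 were higher in Nutlin-3 and 22 lower, or 0 and 38 when the ERCC counts set the scale, which lowered the median of all genes to -0.47 and that of the members to -0.47. All ratios are therefore relative to the other genes. Under ERCC scaling every positive ratio over all columns given below, those of the lists included, turns negative. The ERCC counts were 4007 in Nutlin-3 and 2989 in ethanol. They depend on how many columns came from the libraries with spikes diluted 1000-fold and 10000-fold. The column names do not give this, so the size of the ERCC shift is uncertain.

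Single genes were read against a threshold of 0.32 on the log2 scale, which is 25% higher or 20% lower. No member (0 of 38) reached it in either direction, where 14.9% of all genes that passed the filter passed it as higher and 12.4% as lower. Those shares include many genes with few counts. Among the 6168 genes within the members' range of counts, 3.05% passed it in either direction, so a count of 0 among 38 lies near this background. No member had a counting interval clear of 0 either. That held for 4.55% of all genes above 0 and 3.57% below 0, and for 1.35% below 0 within the members' range. With ERCC scaling 0 members passed the threshold as higher and 34 as lower.

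The largest differences had counting intervals that include 0. These intervals assume a ratio of variance to mean of 1, while NDUFAB1 had 0.15 in Nutlin-3 and 0.19 in ethanol across large columns. An interval that includes 0 therefore does not show that a gene was unchanged. NDUFAB1 (ENSG00000004779, chromosome 16, 23581002 to 23596356), the mitochondrial acyl carrier protein that also sits in complex I, had 168 counts against 203 in ethanol, a log2 ratio of -0.23 (-0.53 to 0.08). NDUFA5, an accessory subunit of the matrix arm, had 136 and 162, a ratio of -0.21 (-0.55 to 0.13). NDUFS1 followed with -0.19 (-0.53 to 0.14), NDUFA8 with -0.15 (-0.50 to 0.21) and NDUFA6 with -0.12 (-0.44 to 0.20).

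At the other end, NDUFB8, a membrane arm subunit, had 174 and 160 counts, a ratio of 0.17 (-0.15 to 0.49). NDUFA13 (ENSG00000186010, chromosome 19, 19515736 to 19529054), a membrane arm subunit also known as GRIM-19 for its part in cell death, had 187 and 172, a ratio of 0.17 (-0.14 to 0.47). NDUFS4, whose loss is a known cause of Leigh syndrome, had 156 and 145, a ratio of 0.15 (-0.18 to 0.49). NDUFA7 stood at 0.15 (-0.24 to 0.55). All of these intervals include 0.

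**Figure D4:**
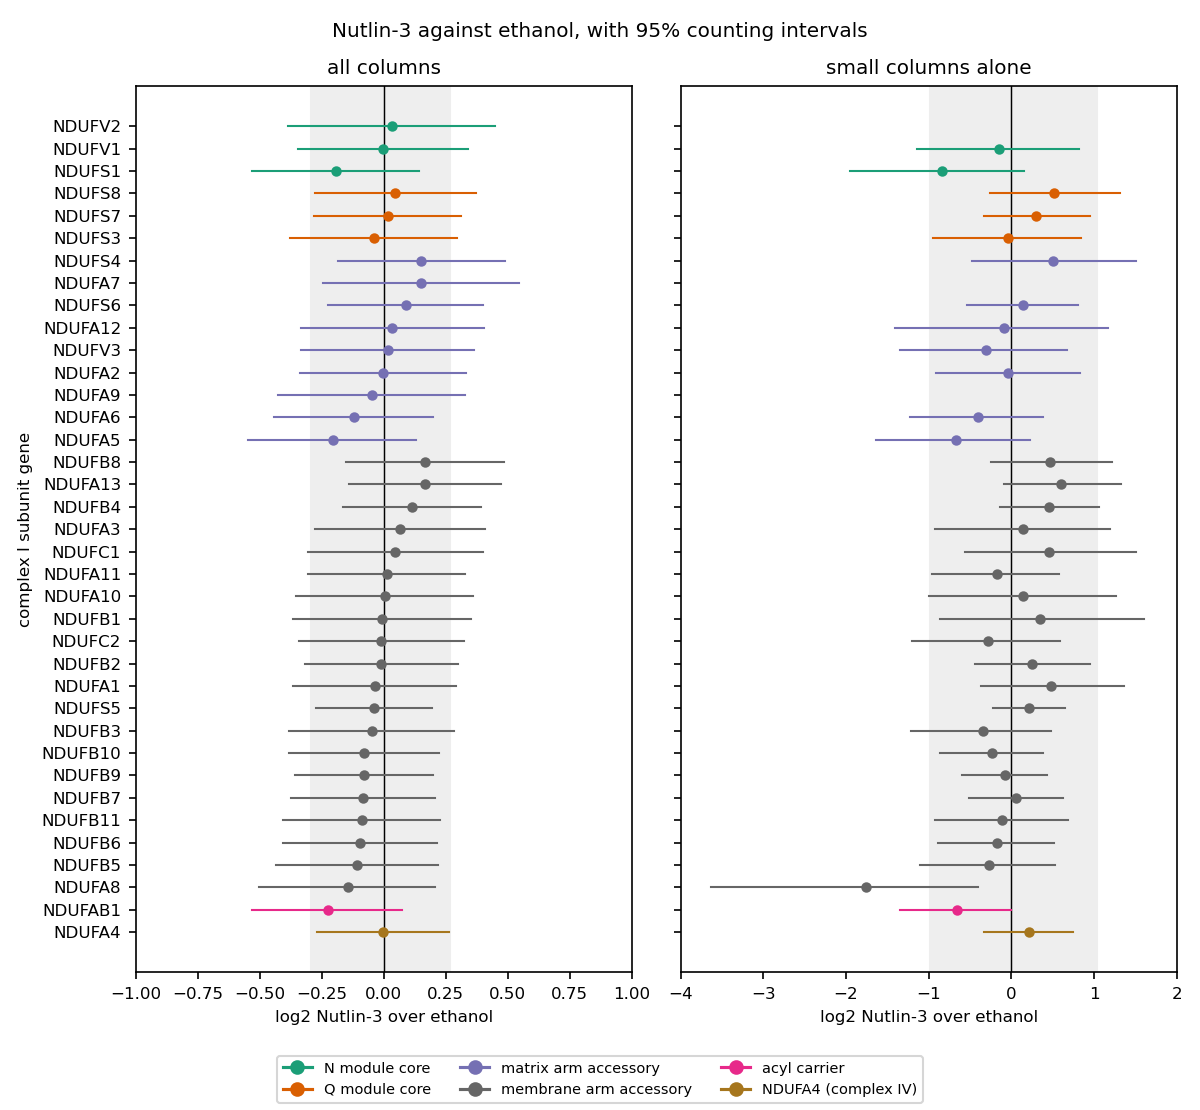
Log2 ratio of Nutlin-3 over ethanol for 37 complex I subunit genes with the 95% counting interval, grouped by role, over all columns on the left and over small columns alone on the right, where 3 genes did not pass the filter. The grey band holds the central 95% of genes within the members' range of counts, -0.29 to 0.27 on the left and -0.98 to 1.04 on the right, and NDUFA8 in small columns is the member whose interval lies apart from 0.

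No role stood apart. The summed log2 ratio was -0.07 (-0.27 to 0.14) for the 3 genes of the N module core and 0.04 (-0.12 to 0.20) for the 4 of the Q module core. It was 0.00 (-0.11 to 0.12) for the 9 accessory genes of the matrix arm and -0.01 (-0.08 to 0.05) for the 20 of the membrane arm. NDUFA4 had -0.00 (-0.27 to 0.26). The intervals of all roles overlapped, so no difference between parts of the complex was detectable here. These sums carry the limit given above for large columns, in which most values were 1. In the small columns alone the ratio was -0.34 (-1.02 to 0.31) for the N module core. For the Q module core it was 0.32 (-0.05 to 0.70), with an interval that overlaps.

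The summed ratio was close to 0 in both column sizes, while single members varied. In the large columns alone the summed ratio was -0.01 (-0.07 to 0.05), and 0 members reached the threshold, against 14.3% of 14759 genes higher and 11.9% lower. These values carry the limit given above for columns in which most values were 1. In the small columns alone the summed ratio of the 35 members that passed the filter was 0.03 (-0.09 to 0.15). There 9 of the 35 passed the threshold as higher and 6 as lower, or 25.7% and 17.1%, against 27.9% and 26.6% of 4762 genes. NDUFA13 was the highest, with 43 counts against 31, a log2 ratio of 0.60 (-0.09 to 1.32).

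NDUFA8 (ENSG00000119421, chromosome 9, 122144058 to 122159819), a cysteine-rich membrane arm subunit, had the lowest ratio in small columns. There it had 5 counts with Nutlin-3 and 20 with ethanol, a log2 ratio of -1.76 (-3.63 to -0.41), and 121 and 124 in the large columns, a ratio of 0.00 (-0.37 to 0.38). It was the 1 member of 35 whose interval lay below 0, a share near the 2.81% of all genes there, and 0 members lay above 0, where 3.63% of genes did. NDUFAB1 had 31 and 54 counts there, a ratio of -0.65 (-1.35 to 0.00). In 19 of the 38 members the ratio had opposite signs in large and small columns, and the rho between both sets of ratios was 0.18. Both values include NDUFV2, NDUFA7 and NDUFA9, which did not pass the filter in small columns. The share of all genes with opposite signs was not computed, so the count is not a trait of the members.

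The other genes of respiration were set beside complex I as described lists. The 17 assembly factors, which build the complex without staying in it, had a median log2 ratio of -0.00. Of these 0 passed the threshold as higher and 1 as lower, NDUFAF1, with 82 counts against 107 in ethanol, a ratio of -0.34 (-0.77 to 0.09). The 7 complex I genes of mitochondrial DNA had a median of -0.08 and spread more widely. MT-ND3 had 589 and 459 counts, a ratio of 0.41 (0.23 to 0.59), and MT-ND1 1187 and 1426, a ratio of -0.22 (-0.33 to -0.11).

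The medians of the remaining chain lay close to 0 as well. They were -0.03 for the 4 genes of complex II, -0.00 for the 9 of complex III and 0.00 for the 15 of ATP synthase. Complex IV, the oxidase at the end of the chain, had a median of 0.08, with 8 of 10 genes higher in Nutlin-3. Of these 10, 0 reached the threshold. In the small columns alone its summed log2 ratio was 0.25 (0.09 to 0.42), from 658 counts against 607. In the large columns it was 0.03 (-0.07 to 0.13). The small-column sums of the others were 0.26 (-0.23 to 0.75) for complex II, 0.17 (-0.02 to 0.37) for complex III and -0.02 (-0.16 to 0.13) for ATP synthase. Over all columns ATP5MC1, a gene of the rotating ring of ATP synthase, had 200 and 264 counts, a ratio of -0.35 (-0.63 to -0.08). ATP5MC2, which encodes the same ring protein, had 303 and 258, a ratio of 0.28 (0.03 to 0.52).

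**Figure D5:**
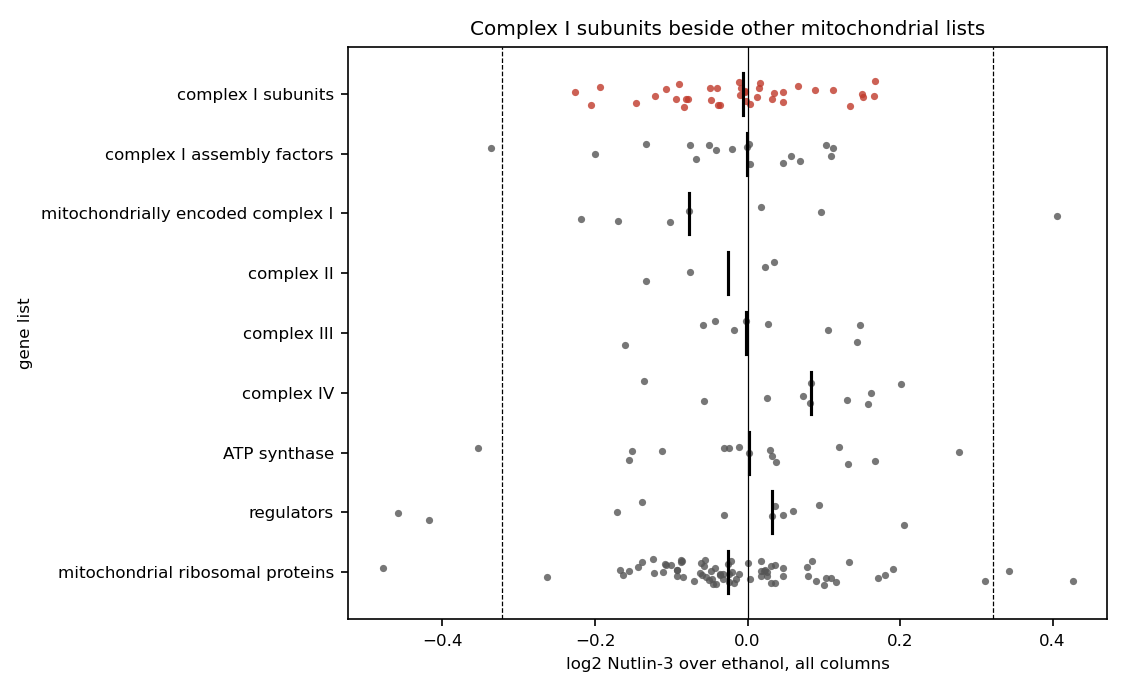
Log2 ratio of Nutlin-3 over ethanol over all columns for each gene of complex I (red) and of 8 other mitochondrial lists (grey), with the median of each list as a bar and dashed lines at the threshold of 0.32 either way. The 38 complex I genes lie between -0.23 and 0.17, inside the dashed lines, and the complex IV median stands at 0.08.

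The 11 regulators of mitochondrial genes had a median ratio of 0.03, with 6 higher and 5 lower, and 2 passed the threshold as lower. Of these NRF1 itself had 52 counts against 74 in ethanol, a ratio of -0.46 with an interval that reaches 0.07. The coactivator PPARGC1B had 68 and 94, a ratio of -0.42 (-0.89 to 0.04). YY1 had 162 counts in each pool. In the small columns alone the summed ratio of the regulators was 0.33 (-0.01 to 0.68). Of the 75 mitochondrial ribosomal protein genes, MRPL38 and MRPL49 passed the threshold as higher and MRPS24 as lower, at 0.43 (-0.23 to 1.10), 0.34 (-0.08 to 0.77) and -0.48 (-1.02 to 0.05), and the median was -0.03. The ratio of shares between small and large columns varied among the lists. Small over large was 3.13-fold for complex IV in Nutlin-3 and 2.73-fold in ethanol, 2.65 and 2.77-fold for ATP synthase, 1.28 and 1.29-fold for mitochondrial ribosomal proteins, and 1.06 and 1.14-fold for the assembly factors, whose counting intervals overlapped between sizes. For the regulators it was 1.15-fold in Nutlin-3 and 0.889-fold in ethanol.

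Near-identical copies make some member counts uncertain. Of the 38 members, 13 had at least 1 processed pseudogene with counts, 25 pseudogenes in all. NDUFV2P1 had 74 counts with Nutlin-3 and 77 with ethanol, or 76.7% of the count of NDUFV2 over both pools. The pseudogenes of NDUFB4 came to 41.7% and those of NDUFA4 to 39.6% of their parent's count, those of NDUFB9 to 18.7% and of NDUFB8 to 17.4%. NDUFV2 had 4 and 1 counts in the small columns, and NDUFV2P1 6 and 3. The copies of NDUFB4 and NDUFA4 weighed less there. NDUFB4 had 55 and 44 counts against 3 and 4 for NDUFB4P12, its most counted copy. NDUFA4 had 62 and 59 against 9 and 8 for NDUFA4P1. Exons of 17 members also overlap another gene in the table, such as RPS28, opposite NDUFA7, with 541 and 495 counts, and PTPMT1, on the strand of NDUFS3, with 107 and 126. How reads shared by copies or overlapping genes were assigned is not given in the sources used here, so the levels of these members are uncertain.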

How the data were processed

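Single-cell libraries of the NGP line were counted by the authors, who deposited whole-number counts per gene and column, not normalized as far as the values show. Per the labels' protocols, cDNA was made on the ddSeq device. How reads were aligned, to which build and annotation, how molecular tags were used and which columns were kept is not given in the sources used here. Of the 500 columns 0 were left without a treatment.

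Symbols came from a table of Ensembl identifiers that matched 25422 of 25693 genes, and positions from GENCODE release 29 on GRCh38, which need not be the build used by the authors. Counts were summed over the columns of a treatment without the 62 ERCC species. TMM factors and the filter with a minimum of 10 counts came from edgeR 4.0.16 in R 4.3.3, and DESeq2 1.42.0 gave alternative size factors. The log2 ratio of sums used 0.5 added counts. Its interval was turned from the exact 95% binomial limits of the part of counts in Nutlin-3, for genes and summed sets alike. Intervals of a gene's count in 1 pool are exact Poisson. All intervals cover counting error only and take counts as independent molecules. A log2 ratio of 0.32 served as threshold, since 1 pool per treatment gives no p-value, and the planned edgeR and DESeq2 tests on library sums were not run. The computation was tested on simulated counts drawn from a Poisson distribution. Counts in large columns varied less than that, so the simulation does not check the intervals on these data.

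Intervals of roles and lists come from summed counts. Motifs were searched on both strands, and a gene counted once however many windows it had. The transcript length of a gene is the median over its protein-coding transcripts. Thinning drew 700 human counts per column at random. No doublet caller was run. The members, lists and limits, the 4000-count limit between column sizes among them, were chosen with earlier results of these data known. Named were the catalytic subunits, NDUFAB1, NDUFA4, the 5 members with most and with fewest counts and the 5 with the largest differences each way, and any member past the threshold or with an interval clear of 0. From the other lists at most 4 genes past the threshold were named, with CDKN1A and MDM2 as a check of the treatment, and beyond the rule MT-ND1, ATP5MC2 and YY1, chosen after their values were seen. NDUFB3 and NDUFC2, given with their rank in level alone, also lie beyond the rule. The values of 1 member are not reported here, though it stays in all counts and sums.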

Additional observations from a re-analysis of the deposited data

How the results depend on the processing

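Other size factors, unscaled totals, no filter, 2 added counts, columns with names in both treatments, and 1 count per gene and column kept the median ratio, the summed ratio and the counts of complex I genes past the threshold within the spread of the reported values, as did large columns alone. Columns with names in both treatments held 1278172 of the 1301232 Nutlin-3 counts and 1322329 of the 1342134 ethanol counts. Most large-column values were already 1. These column settings and the 1-count setting thus left little room for a different result. ERCC scaling, which subtracts a constant from every gene, gave a median of -0.47, a summed ratio of -0.48 and 34 members past the threshold as lower. It carries the limit given above for the unknown mix of spike dilutions. Small columns alone, with 35 members tested on fewer counts, gave 9 members past the threshold as higher and 6 as lower. A threshold of 1.5-fold and a 99% interval left 0 members past either. The median complex I share per column was 0.530% in Nutlin-3 and 0.507% in ethanol, and the mean after thinning to 700 counts, which leaves out shallow columns, 0.581% and 0.574%. For the 23 members that the naming rule picked, 204 values under these alternatives were compared with the first counting interval. Of these 170 stayed within it and 34 left it, 23 under ERCC scaling and 11 in small columns alone. No paired analysis was possible because the columns name no library or dilution, and for the same reason no library could be left out in turn. Depth limits the small columns most, where members had 1 to 93 counts.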
